A study of Mus musculus with 2 samples.

Results

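Described here are 49 genes of the actin cytoskeleton, cell junctions and cell adhesion, taken by symbol from the 15644 genes that had a probe set with a gene symbol. They cover 17 roles, from the actins and the proteins that bind them to tubulins, junction proteins and matrix proteins. A probe set was found for 43 of the 49, and Actg1, Tpm3, Myl6, Cfl1, S100a11 and Tuba1c were not analysed here. Of the 43, 40 reached the floor of 32 intensity units (5 on the log2 scale) in at least 1 array and are called measured. Myl9, Anxa1 and Lamb3 reached it in neither array, and no difference is given for them. The size threshold for counts was a log2 difference of 0.32, PCN minus DMSO.

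The cells were primary hepatocytes of a male C57BL/6 mouse, 9 weeks old, kept in culture for 24 h before treatment. One group then received 10 µmol/l pregnenolone 16α-carbonitrile (PCN), a steroid ligand of the rodent pregnane X receptor, and the other its vehicle dimethyl sulfoxide (DMSO), both for 12 h. RNA from 3 samples was pooled for each group and put on 1 array, so the 2 arrays give 1 value per gene and group. No spread between cultures could be measured, no test was possible, and "higher" and "lower" below describe these arrays alone. Both groups share the animal's sex, age and strain, and the labels name a single mouse as the source of the cells. In RNA from whole cultures, fewer cells of a type and less RNA per cell cannot be told apart.

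Actin filaments form a cortex under the hepatocyte membrane and a dense belt around the bile canaliculus, the narrow channel between neighbouring cells. Actin-binding proteins cross-link, stabilise, cut and pull these filaments, and focal adhesions tie them to the matrix through integrins. Tight junctions seal the canaliculus, adherens junctions hold cells together, and gap junctions let small molecules pass from cell to cell. Hepatocytes placed in culture spread and lay down stress fibres, and many cytoskeletal genes are known to be expressed more strongly in culture than in the liver. The transcription factor SRF, with its actin-sensing partners of the MRTF family, binds CArG boxes in many genes of this group.

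Promoter stretches are shown for the members that hold a CArG box, because this is the DNA element best known from cytoskeletal genes. RefSeq promoter windows (GRCm38.p6) were found for 39 of the 49 members, and the 250 bases before each start were searched on both strands. A CArG box stood in 5 of these 39 (12.8%), against 439 of 27025 genes with a window (1.62%). A match describes the sequence only. Capitals mark the CArG box in each stretch, read 5′ to 3′ on the gene's strand.
Cnn2 (chr10:79988514-79988583, plus strand): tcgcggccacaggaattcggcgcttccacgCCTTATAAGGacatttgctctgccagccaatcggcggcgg
Vcl (chr14:20929148-20929210, plus strand): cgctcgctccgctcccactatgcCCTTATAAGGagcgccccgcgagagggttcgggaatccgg
Myl9 (chr2:156775273-156775342, plus strand): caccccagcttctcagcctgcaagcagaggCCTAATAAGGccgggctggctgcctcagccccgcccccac
Actg1 (chr11:120348546-120348615, minus strand): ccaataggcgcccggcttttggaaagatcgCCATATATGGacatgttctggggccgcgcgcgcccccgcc
Myl6 (chr10:128493020-128493089, minus strand): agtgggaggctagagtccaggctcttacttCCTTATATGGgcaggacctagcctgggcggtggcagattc

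The box begins 56 bases before the start in Cnn2, 227 in Vcl, 161 in Myl9, 90 in Actg1 and 50 in Myl6. Cnn2 and Vcl carry the same 10 letters, and both were measured. Intensities for the other 3 were under the floor (Myl9) or not analysed here (Actg1 and Myl6).

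Stretches from Gjb1 and Cldn1 are shown because they were the 2 members lower by the size threshold or more. Their windows hold GTTAAT, the core of the site read by HNF1, a transcription factor of hepatocytes, which is given in capitals. The core occurred in 3 of 39 members (7.69%), Rdx being the third, and in 7.49% of all genes with a window. Other letters that were searched are not marked here. The windows of both genes also hold GGGCGG, and that of Gjb1 holds GGAATG and TATAAA.
Gjb1 (chrX:101377157-101377222, plus strand): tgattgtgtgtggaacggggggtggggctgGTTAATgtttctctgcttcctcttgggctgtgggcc
Cldn1 (chr16:26372045-26372089, minus strand): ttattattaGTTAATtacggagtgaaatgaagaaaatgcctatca

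In all, 13 motifs were searched. None of the 39 members held a PXR-type element written as AGNTCANNNAGNTCA, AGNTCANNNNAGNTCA or TGANCTNNNNNNAGNTCA, which occurred in 0.0592%, 0.122% and 0.037% of all genes with a window. The TEAD core GGAATG stood in 11 members (28.2%, against 14.4% of all), and the SP1 box GGGCGG in 29 (74.4%, against 35.4%). TATAAA stood in 5 members (12.8%, against 14.3%), the AP-1 letters TGANTCA in 6 (15.4%, against 7.82%) and the C/EBP letters TTGCNCAA in Actn1 alone (2.56%, against 2.99%). No member held the full HNF1 site GTTAATNATTAAC, the HNF4 letters CAAAGTCCA or the glucocorticoid receptor letters ACANNNTGT, against 0.0111%, 0.451% and 6.76% of all. These letters being absent from a short window says nothing about binding elsewhere.

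As a set, the members differed little between the arrays. PCN was higher in 28 of the 40 measured members, at any size of difference, where 57.6% of the 6449 measured genes were higher, and lower in 12, where 42.4% were lower. The median log2 difference (PCN minus DMSO) of the members was 0.08, against 0.03 over all measured genes. Centring the arrays on the median of all genes brought the count to 24 of 40 and the members' median to 0.05. At a log2 difference of 0.32 or more, 1 member was higher, against 5.27% of all measured genes, and 2 were lower, against 6.17%. These shares, 2.5% and 5% of the members, lay below the background. At 1.5-fold, 1 member was higher (background 0.636%) and 0 were lower (background 1.3%). The single member past 2-fold, Dpysl3, stands against a background of 0.093%. The members were chosen with earlier results of these data known, so this contrast is a description only.

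**Figure D1:**
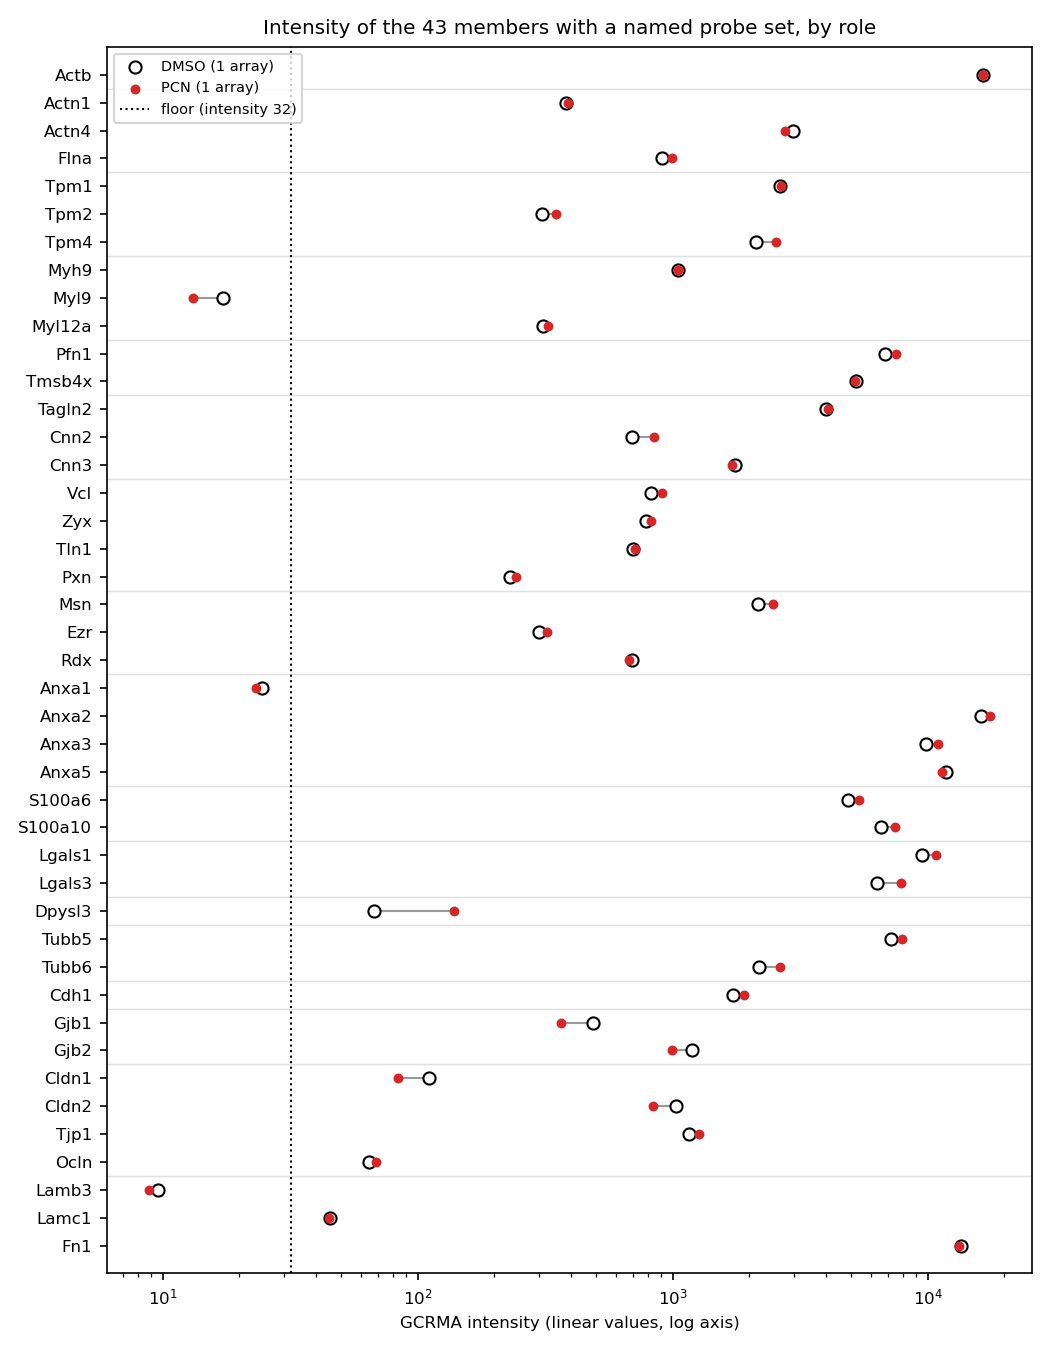
GCRMA intensity of the 43 members with a probe set, on a log axis, ordered by role, with an open circle for the DMSO array and a red dot for the PCN array. The circles and dots nearly coincide for most genes, such as Actb at 16471 and 16525, whereas Dpysl3 is displaced to the right with PCN and Gjb1, Gjb2, Cldn1 and Cldn2 to the left.

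The cytoplasmic actin gene Actb had an intensity of 16471 with DMSO and 16525 with PCN, a log2 difference of 0.005 that turned to -0.03 with median centring. The array's 3 control sets for beta-actin read the 3′ end, the middle and the 5′ end of its transcript. They differed by 0.04, 0.05 and 0.04, from 20884 to 21516 at the 3′ end and from 13865 to 14212 at the 5′ end. All 4 readings of beta-actin thus lay within 0.05 of no difference. Signals this bright can be compressed on an array.

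Among the proteins that cross-link filaments, no member differed by 0.2 or more on the log2 scale. Actn1, an α-actinin of stress fibres and adhesions, had intensities of 381 with DMSO and 390 with PCN, and its sign turned with the loess trend removed. Actn4, the other non-muscle α-actinin, went from 2977 to 2760, 1.08-fold lower. Flna, which encodes filamin A and joins filaments at angles, went from 911 to 994, 1.09-fold higher. The median of the 3 was 0.03 on the log2 scale, as over all genes.

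Tropomyosins, rod-shaped proteins that wind along actin filaments, were higher in all 3 measured genes as deposited, with a median log2 difference of 0.18. Among all measured genes 57.6% were higher, with a median of 0.03. Tpm1 turned lower under 3 scalings, and median centring left 2 of the 3 higher, against 50% of all measured genes. Tpm4 went from 2120 with DMSO to 2534 with PCN, 1.20-fold higher. Tpm2 went from 308 to 349, 1.13-fold higher. Tpm1 had 2635 and 2668, a log2 difference of 0.02, and -0.01 with median centring. The isoforms of this family have closely related sequences, and cross-reading between them was not tested.

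Genes of the myosin II motor showed nearly the same level in both arrays. Myh9, the heavy chain of non-muscle myosin IIA, had 1053 with DMSO and 1048 with PCN. Myl12a, a regulatory light chain, had 311 and 325. Myl9, the light chain typical of smooth muscle and myofibroblasts, stayed under the floor at 17.3 and 13.1.

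Of the genes for actin turnover, Pfn1, whose product profilin 1 feeds actin monomers to growing ends, went from 6801 to 7499, 1.10-fold higher. Tmsb4x, which encodes the monomer-binding peptide thymosin β4, had 5231 and 5183. In the calponin family, Cnn2 went from 693 with DMSO to 841 with PCN, 1.21-fold higher and the third largest difference upward among the members. Its relatives Tagln2, at 3979 and 4063, and Cnn3, at 1757 and 1704, differed by 0.03 and -0.04 on the log2 scale.

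Focal adhesion adaptors were higher in all 4 genes as deposited, with a median log2 difference of 0.07, while Tln1 turned lower under 3 scalings. Of all measured genes 57.6% were higher, with a median of 0.03. Median centring left 3 of the 4 higher, against 50% of all measured genes. Vcl, encoding vinculin, which links talin to actin, went from 819 to 908, 1.11-fold higher. Zyx, encoding the stress-fibre repair protein zyxin, had 786 and 819. Tln1, encoding talin 1, the integrin activator, had 698 and 712, a log2 difference of 0.03, and -0.004 with median centring. Pxn, encoding the scaffold paxillin, had 229 and 242. Of the CArG box genes shown above, the 2 measured, Cnn2 and Vcl, differed by 0.28 and 0.15 on the log2 scale. Any relation of these differences to the box was not tested.

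ERM proteins fasten the actin cortex to the plasma membrane, and radixin is the form known for the canalicular membrane of hepatocytes. Msn, encoding moesin, went from 2160 with DMSO to 2482 with PCN, 1.15-fold higher. Ezr, encoding ezrin, had 300.2 and 321. Rdx, encoding radixin, had 691 and 674, a log2 difference of -0.04. Over the actin, actin-binding, focal adhesion and ERM genes together, 16 of 21 measured members were higher, with differences from -0.11 to 0.28 and a median of 0.06, where 57.6% of all measured genes were higher with a median of 0.03. Median centring turned the 16 into 12 of 21, where it put all measured genes at 50%.

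The calcium-dependent membrane binders were among the brightest signals of the set. Anxa2, which pairs with the S100a10 protein at the cell surface, went from 16215 to 17543, 1.08-fold higher. Anxa3 went from 9833 to 11000.3, 1.12-fold higher, and Anxa5 from 11783 to 11345, 1.04-fold lower. Anxa1 stayed under the floor at 24.6 and 23.3. S100a10, the partner of annexin A2, went from 6588 to 7437, 1.13-fold higher, and S100a6, a calcium sensor of proliferating cells, from 4880 to 5387, 1.10-fold higher. Anxa2 and S100a10 were thus higher with PCN by log2 differences of 0.11 and 0.17, where 57.6% of all measured genes were higher. With median centring these differences were 0.08 and 0.14.

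Galectins bind β-galactoside sugars on surface glycoproteins. Lgals3, encoding galectin-3, went from 6307 with DMSO to 7831 with PCN, 1.24-fold higher and, at 0.31 on the log2 scale, just outside the size threshold. Lgals1, encoding galectin-1, went from 9465 to 10804, 1.14-fold higher. In tubulins, the units of microtubules, Tubb6 went from 2182 to 2637, 1.21-fold higher, and Tubb5 from 7148 to 7915. Dpysl3, encoding a protein of the collapsin response mediator family that binds tubulin and actin, went from 67.5 to 138. It lay at percentile 99.9 of the differences of all measured genes. Its intensity with DMSO was about 1 log2 unit above the floor (6.08 on the log2 scale), so it is among the dimmer members.

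**Figure D2:**
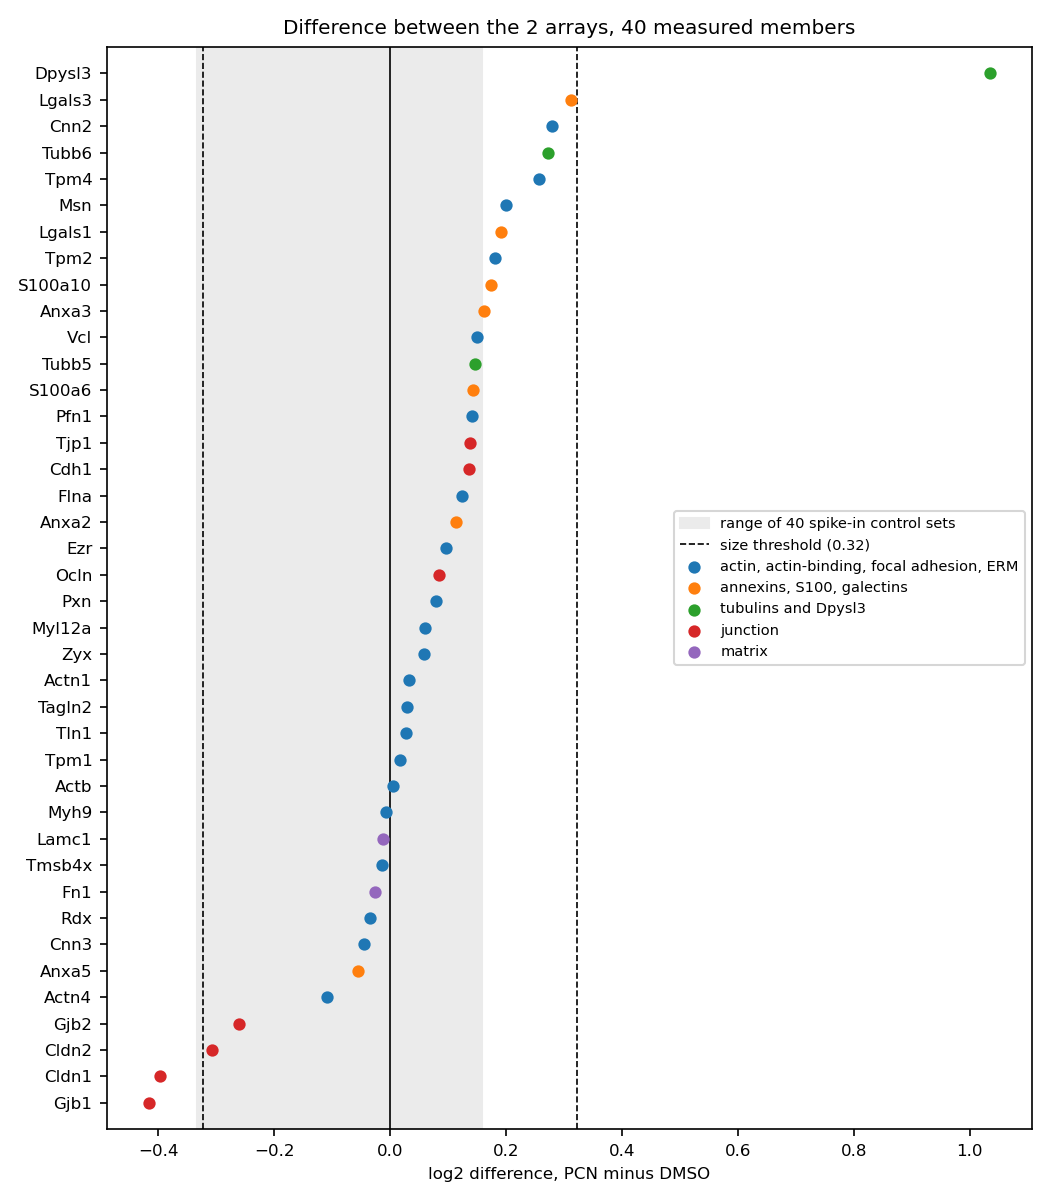
Log2 difference, PCN minus DMSO, of the 40 measured members, sorted and coloured by role, with the range of the 40 measured spike-in control sets in grey and the size threshold of 0.32 as dashed lines. Dpysl3 stands alone at 1.03, and the 4 lowest points are the connexin and claudin genes Gjb1, Cldn1, Cldn2 and Gjb2, from -0.42 to -0.26.

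The junction genes held the members with the largest differences downward. Gjb1, encoding connexin 32, the main gap junction protein of hepatocytes, had 486 with DMSO and 364 with PCN, 1.33-fold lower. Gjb2, encoding its partner connexin 26, went from 1187 to 991, 1.20-fold lower. Cldn1, encoding a sealing claudin of tight junctions, went from 111 to 84.1, 1.32-fold lower. Cldn2, encoding a claudin that forms cation and water pores, went from 1032 to 835, 1.24-fold lower and, at -0.31 on the log2 scale, just outside the size threshold. These 4, set side by side after their values were seen, are the 4 lowest of the 40 measured members, and 42.4% of all measured genes were lower at any size.

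Other junction members lay on the opposite side. Cdh1, encoding E-cadherin of the adherens junction, went from 1729 to 1900, 1.10-fold higher. Tjp1, encoding the scaffold ZO-1, which ties tight junctions to actin, went from 1155 to 1271, also 1.10-fold higher. Ocln, encoding the tight junction protein occludin, had 64.7 and 68.5 at a low level. Within the tight junction group the members therefore divided, with both claudins lower and ZO-1 and occludin higher, for a median of -0.11.

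Matrix members showed the same level in both arrays within 0.03 on the log2 scale where they were measured. Fn1, encoding fibronectin, had 13529 with DMSO and 13290 with PCN. Lamc1, encoding the laminin γ1 chain, had 45.4 and 45.0. Lamb3, a chain of the epithelial laminin-332, was under the floor at 9.56 and 8.83.

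Array-to-array noise was gauged from bacterial and phage control sets added from outside, 40 of which were measured. Their log2 differences had an SD of 0.10 and ran from -0.33 to 0.16, a spread that does not include differences between cultures. Of the 40 members, 17 differed by no more than this SD, and 28 lay within the range. Above it lay 10 members (Dpysl3, Lgals3, Cnn2, Tubb6, Tpm4, Msn, Lgals1, Tpm2, S100a10 and Anxa3), where 21.7% of all measured genes lay above. Below it lay Gjb1 and Cldn1, where 5.61% of all measured genes lay below. At a log2 difference of 0.2, a threshold added after the values were seen, 6 members were higher (background 15.7%) and 4 lower (background 13.1%). The 6 were Dpysl3, Lgals3, Cnn2, Tubb6, Tpm4 and Msn, and the 4 were the connexins and claudins. At 0.2 and 0.32 the members' share was close to or below that of all genes, and past 1.5-fold and 2-fold it consists of Dpysl3.

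The members' median stood furthest above that of other genes of like level among the brightest. Above an intensity of 2048, averaged over the arrays on the log2 scale, 14 of 18 members were higher, with a median log2 difference of 0.14, against 57.3% and 0.02 for the 489 genes at this level. From 512 to 2048, 7 of 12 members were higher, with a median of 0.04, equal to the 0.04 of 1382 genes. Below 512, the 10 remaining members had medians of 0.04 (4 genes) and 0.07 (6 genes), against 0.02 and 0.05. These levels were chosen after the values were seen.

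**Figure D3:**
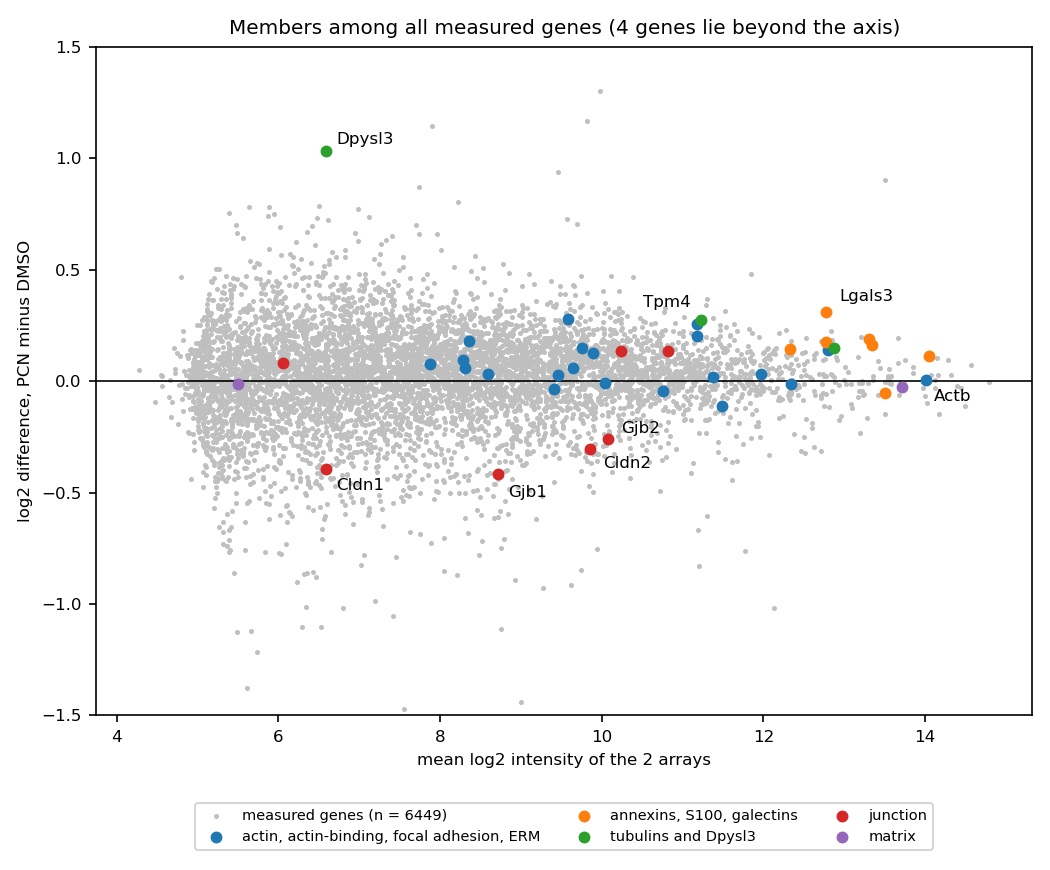
Log2 difference against mean log2 intensity for the 6449 measured genes in grey and the 40 measured members in colour, with 4 genes beyond the axis of 1.5. Most members lie within the grey cloud at middle and high levels, Dpysl3 lies above it at 1.03, and Gjb1, Gjb2, Cldn1 and Cldn2 lie in its lower part.

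Genes of the same pathways outside the members were counted from 9 lists. Of 214 listed symbols, 180 had a probe set and 106 were measured. Of the 106, 7 were higher with PCN by the size threshold or more and 1 was lower, and 63 were higher at any size, with a median log2 difference of 0.04. These are 6.6%, 0.943% and 59.4% of the 106, beside 5.27%, 6.17% and 57.6% of all measured genes, whose median was 0.03. Median centring turned the 7 and 1 into 4 and 4, so this split rests on the scaling. Gsn, encoding the filament-severing protein gelsolin, had the largest difference upward in these lists, from 64.3 to 94.1, 1.46-fold. Prkci, a kinase of epithelial polarity, went from 494 to 668, 1.35-fold higher. Col4a2, a chain of basement membrane collagen IV, went from 389 to 517, 1.33-fold higher. Col18a1, another basement membrane collagen, was the 1 gene lower by that size, from 564 to 373, 1.51-fold.

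The counts by list stand beside the 57.6% of all measured genes that were higher, with their median of 0.03, and none is read as particular to a list. The Arp2/3, WAVE complex and formin genes, which start new filaments, were higher in 11 of 13, with a median of 0.09 and none past the size threshold. Other focal adhesion genes were higher in 9 of 12, with a median of 0.15 and 1 past it. Other capping, severing and bundling genes were higher in 15 of 24 (median 0.06). Spectrin, ankyrin and ERM partner genes were higher in 4 of 6 (median 0.10), and other basement membrane genes in 4 of 6 (median 0.09). Other tubulin and microtubule genes were higher in 4 of 9 (median -0.02), and other annexins, S100 proteins and galectins in 3 of 9 (median -0.03).

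Other junction genes were divided. The 13 measured genes of adherens junctions and desmosomes had a median of -0.02, 9 of them being lower and none past the size threshold as deposited. Among the lower, named after their values were seen, Dsg2, encoding the desmosomal cadherin desmoglein 2, went from 170 to 137, a log2 difference of -0.31, and Ppl, encoding the desmosomal plaque protein periplakin, from 376 to 315, a difference of -0.25. Tight and gap junction genes were higher in 9 of 14, with a median of 0.09, 2 higher by that size or more and 0 lower by as much as deposited. Tjp3, encoding the scaffold ZO-3, went from 45.4 to 37.1, a log2 difference of -0.29, and Cxadr, encoding a junctional adhesion receptor, from 584 to 488, a difference of -0.26, both named after their values were seen. With median centring Dsg2 and Tjp3 passed the size threshold downward, 1 gene in each list, and so did S100a1 outside the junction lists. Dsg2, Ppl, Tjp3 and Cxadr had differences near those of Gjb2 and Cldn2, where 13.1% of all measured genes were lower by 0.2 or more. Differences of this size also occurred outside the junction lists. Examples, named after their values were seen, are S100a1 at -0.31, Pdlim7 at -0.25 and Epb41l4b at -0.24. In the tight and gap junction list larger differences were upward, with Prkci at 0.43, Mpp5 at 0.37 and Panx1 at 0.31. The other measured claudins of the list, named after their values were seen, were Cldn3 at 4782 and 5184, Cldn4 at 1842 and 1956 and Cldn12 at 753 and 811, all slightly higher with PCN. Gja1, encoding connexin 43, was near the floor at 41.0 and 41.6. Of the 5 listed claudins that were measured, Cldn1 and Cldn2 were lower and 3 were higher.

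**Figure D4:**
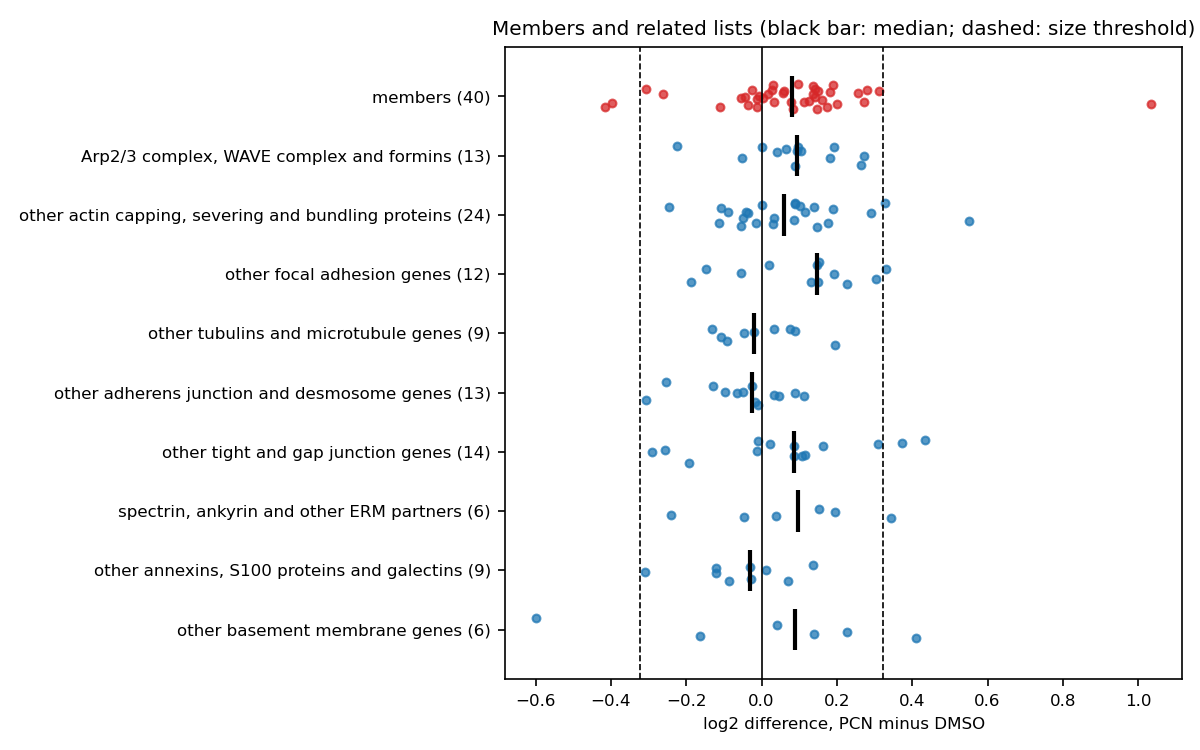
Log2 difference, PCN minus DMSO, of each measured gene for the 40 members (red) and the 9 related lists (blue), with the number of measured genes in brackets, medians as black bars and the size threshold of 0.32 as dashed lines. The medians lie between -0.03 and 0.15, and few genes pass the dashed lines in any list.

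Markers of the labelled cell type were present. Of 12 hepatocyte markers, 11 had a probe set and all 11 were measured, with Alb at 21685 and 21383. At any size, 9 of the 11 were lower, with a median of -0.03, where 42.4% of all measured genes were lower. Asgr1 (551 and 406) was lower by the size threshold or more, as were 6.17% of all measured genes. Asgr2 (34.3 and 30.6) was under the floor with PCN. The summed intensity of the 11 markers was 122248 with DMSO and 120460 with PCN. Any relation of these markers to the junction values was not tested. Few markers of other cells reached the floor, and the sums given for them cover all markers with a probe set, also those under it. Of 15 markers of stellate cells, myofibroblasts and smooth muscle, 3 were measured, all lower with PCN, with summed intensities of 516 and 458. Most of the sum was Dcn, at 351 and 313. Acta2 (36.5 and 30.6) and Tagln (40.1 and 30.3) were under the floor with PCN, so their differences are only limits. Col1a1, Col1a2, Pdgfrb, Des and Myh11 were under the floor in both arrays, as was the member Myl9. Of 11 endothelial markers 3 were measured, none above 42.1, with sums of 201 and 218. Of 12 markers of Kupffer cells and leukocytes, 3 were measured, with sums of 1827 and 1779, most of it Cd68, and Ptprc and Adgre1 were under the floor. Of 7 bile duct markers with a probe set 3 were measured, with sums of 849 and 753, and Epcam and Krt7 were under the floor. All 3 passed the size threshold, where 5.27% of all measured genes did so upward and 6.17% downward. Krt19 was higher (169 and 223), and Sox9 (127 and 95.2) and Cd24a (533 and 415) were lower. None of 6 mesothelial markers was measured, with sums of 24.5 and 23.7.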

How the data were processed

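RNA of cultured mouse hepatocytes was read on 2 one-colour Affymetrix arrays, 1 per group. The authors deposited linear GCRMA intensities, 1 per probe set, made with GCRMA 2.2.0 per the submitters' processing notes. The table holds 16395 probe sets. Those of the members carry the gene's Entrez number in their names. The version and build of the probe set definition are not given in the sources that were used. Genes were named through the platform annotation, and all 43 named members matched RefSeq (GRCm38.p6) by Entrez number and symbol. Log2 intensities and their differences came from pandas 2.3.3 and numpy 2.4.6 under Python 3.11.15. Values under a floor of 5 (log2) in 1 array were raised to it. The floor and the size threshold, 1.25-fold or 0.32 on the log2 scale, are choices, not a measured background. Every member was described. The rule for pathway genes was to name at most 3 each way past 1.25-fold. Further pathway genes, such as Mpp5, Dsg2 and S100a1, were named outside this rule. A further pathway list is not reported here. Members and lists were chosen with earlier results of these data known. With 1 array per group no test was run, and precision is limited by the number of arrays. GCRMA brings the arrays to a similar scale, so a change in total RNA cannot be seen. The deposited medians over all probe sets still differed slightly, at 14.4 with DMSO and 14.1 with PCN. The procedure was tested on simulated data, with 1.5-fold shifts in genes well above the floor. The simulated noise was smaller than the spread of the spike-in controls. This does not cover dim members such as Dpysl3, Cldn1 and Ocln. Array batch and treatment cannot be told apart. Alternatives were other floors, scalings (loess by statsmodels 0.14.6, fraction 0.3) and thresholds.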

Additional observations from a re-analysis of the deposited data

How the results depend on the processing

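The members' counts at the size threshold, 1 higher and 2 lower, were the same with a floor of 4 or 6 and with low values as deposited. Quantile normalization, median centring and removal of a loess trend left 1 higher and gave 3 lower, Cldn2 passing the threshold. At 1.5-fold and at 2-fold 0 members were lower, and at 0.2 on the log2 scale, added after seeing the data, 6 were higher and 4 lower; these follow from the size asked for. Members higher at any size ranged from 24 to 28 and the members' median from 0.04 to 0.08. Pathway genes higher by the size threshold were 7, but 4 after quantile normalization, median centring or removal of the loess trend. The 1 lower became 3 with quantile normalization, 4 after median centring and 3 after removal of the loess trend; the cause was not tested beyond the shift of the median of all genes, from 0.03 to 0.02, 0.00 and 0.002. All 263 single-gene values and 102 medians over these settings moved by no more than the SD of the spike-in controls. Of these, 11 single-gene values (Actb, Actn1, Tpm1, Tagln2, Tln1 and Lamc1) and 3 medians changed sign, all close to 0. No paired analysis was possible because only 1 array per group exists here, and no replicate could be left out. Signal near background limits Myl9, Anxa1, Lamb3 and Lamc1.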
